A study of Mus musculus with 47 samples.

Results

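The genes of fatty acid, triglyceride and cholesterol synthesis were followed through the reproductive cycle of the mouse mammary gland in enriched luminal and basal epithelial cells. The group was listed by gene symbol as 41 genes, and 40 of them had a row among the 17078 genes of the expression table. The row of Hmgcs1 was not matched and the gene was not analysed here. The 40 genes fell into 5 branches: 5 regulators of the SREBP pathway, 14 enzymes of sterol synthesis, 8 genes of fatty acid synthesis, 7 of fatty acid desaturation and elongation, and 6 of glycerolipid assembly.

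The samples were sorted cells of FVB/N mice from 8 time points, with no genetic change or drug treatment named for any group. Mice that had not been pregnant are called virgin here, and were either 10 weeks (W10) or 4 months old (M4). The other groups were pregnancy days 3.5 (P3) and 14.5 (P14), lactation days 3 (L3) and 10 (L10), involution day 2 (Id2) and involution week 4 (Iw4), the last 2 after forced weaning. Glands of several mice were pooled for every sort, so a replicate is a sort of pooled animals and the spread between replicates does not show the spread between animals. Luminal cells were those with low and basal cells those with high surface CD29, both CD24+ and negative for lineage markers. Among these lineage markers was CD31, the product of the endothelial marker gene Pecam1. RNA was amplified before sequencing. Values were used for 46 libraries, 24 luminal and 22 basal, with 3 per time point except for basal cells at P14 and L10, which had 2. The basal library of P14 replicate 2 was not analysed here. The libraries held 4398806 to 20023054 reads on genes (median 8518616). Levels are given as CPM, the reads of a gene divided by the effective library size that the authors computed, as counts per 1000000, and 3 reads corresponded to 0.17 to 1.05 CPM depending on the library.

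SREBP-1, encoded by Srebf1, and SREBP-2, encoded by Srebf2, are transcription factors that are held in the endoplasmic reticulum membrane. SCAP carries them to the Golgi for cleavage when sterols are low, and the INSIG proteins retain them when sterols are high. SREBP-1 is best known for genes of fatty acid synthesis and SREBP-2 for genes of sterol synthesis. In the lactating gland, secretory luminal cells make fatty acids from acetyl-CoA, join them to glycerol as triglyceride and release them as milk fat globules. Contractile basal (myoepithelial) cells surround them and expel the milk.

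The regions just upstream of these genes are shown because many of the members moved together and because SREBP acts with factors such as NF-Y, which binds CCAAT, and Sp1, which binds GC boxes. Windows of 250 bases before the annotated start were available for 32 of the 40 members from RefSeq on mouse build GRCm38.p6, which is later than the build the reads were aligned to. The motifs searched on both strands were CCAAT, the GC box GGGCGG, the E box CACGTG and the sterol regulatory element TCACNCCAC. The windows of 5 members that carry the results are written 5′ to 3′ on the strand of the gene, and the capitals mark a match to one of these motifs on either strand. Fasn (chr11:120824548-120824797, minus strand) and Thrsp (chr7:97417551-97417800, minus strand) are fatty acid genes that rose in luminal cells between P3 and P14, Mvk (chr5:114444019-114444268, plus strand) and Insig1 (chr5:28071162-28071411, plus strand) rose in both cell populations, and Srebf2 (chr15:82147019-82147268, plus strand) is the regulator that was higher in basal cells at L3.
Fasn: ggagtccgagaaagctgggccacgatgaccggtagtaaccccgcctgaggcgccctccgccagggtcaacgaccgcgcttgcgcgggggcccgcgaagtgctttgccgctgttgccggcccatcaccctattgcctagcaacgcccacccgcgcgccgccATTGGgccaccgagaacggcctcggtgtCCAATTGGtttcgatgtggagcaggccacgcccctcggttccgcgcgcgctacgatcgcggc
Thrsp: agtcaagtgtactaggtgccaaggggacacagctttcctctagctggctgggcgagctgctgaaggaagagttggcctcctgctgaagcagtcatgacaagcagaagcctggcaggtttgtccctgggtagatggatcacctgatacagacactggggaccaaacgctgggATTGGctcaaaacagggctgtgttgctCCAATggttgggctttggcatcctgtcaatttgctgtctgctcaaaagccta
Mvk: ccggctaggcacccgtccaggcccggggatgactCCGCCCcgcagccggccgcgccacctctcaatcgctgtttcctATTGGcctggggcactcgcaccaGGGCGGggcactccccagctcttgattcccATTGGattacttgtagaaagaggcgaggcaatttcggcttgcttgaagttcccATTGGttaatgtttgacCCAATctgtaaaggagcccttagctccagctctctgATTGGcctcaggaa
Insig1: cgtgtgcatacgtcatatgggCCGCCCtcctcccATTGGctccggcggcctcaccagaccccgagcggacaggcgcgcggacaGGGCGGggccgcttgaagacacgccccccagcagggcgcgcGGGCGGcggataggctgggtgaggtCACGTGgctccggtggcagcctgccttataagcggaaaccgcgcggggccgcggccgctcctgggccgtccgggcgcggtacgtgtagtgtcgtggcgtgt
Srebf2: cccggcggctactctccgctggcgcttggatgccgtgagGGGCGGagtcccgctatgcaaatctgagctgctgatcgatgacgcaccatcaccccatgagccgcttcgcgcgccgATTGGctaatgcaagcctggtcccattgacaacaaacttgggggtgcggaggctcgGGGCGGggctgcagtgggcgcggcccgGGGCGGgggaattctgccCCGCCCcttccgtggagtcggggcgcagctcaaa

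Mvk held 5 CCAAT matches and 2 GC boxes in its window. Fasn held 3 CCAAT matches, of which 2 overlap as CCAATTGG, and no GC box. Thrsp held 2 CCAAT matches, Insig1 held 1 CCAAT match, 3 GC boxes and 1 E box, and Srebf2 held 1 CCAAT match and 4 GC boxes. CCAAT was present in the windows of 25 of 32 members (78.1%) and of 39.5% of the 11722 genes of the expression table that had a window. It was found for 11 sterol genes, 6 fatty acid genes, 4 regulators, 2 genes of desaturation and elongation, and 2 glycerolipid genes. The 8 members without a window were Dgat1, Dgat2, Fads1, Fdft1, Fdps, Scd1, Scd2 and Sqle. The 32 members had 44 windows, and 9 members had 2 or more. GGGCGG was present for 24 members (75%) and 60.6% of genes, and CACGTG for 6 members (18.8%) and 9.32% of genes. TCACNCCAC had no match in the windows of the members and one for 1.27% of genes. These are counts of letters in a short window and do not show whether a factor was bound.

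Several libraries stood apart, and this bears on every comparison with lactation. Of the reads of luminal libraries, 1.00 to 2.57% fell on 6 milk protein genes (the caseins Csn2, Csn3, Csn1s1, Csn1s2a and Csn1s2b, and Wap) at W10, 15.4 to 19.8% at P14, 27.1 to 58.2% at L3, 18.2 to 32.6% at L10 and 23.9 to 31.6% at Id2, while the basal libraries reached no more than 5.25%. At M4, the other virgin group, the share in luminal libraries was 3.03 to 10.0%. The luminal libraries held 8 luminal markers that summed to 4335 to 9513 CPM, with Krt8, Krt18 and Krt19 among them. Basal markers, with Krt5, Krt14 and Acta2 among them, summed to 38746 to 73818 CPM in the basal libraries of lactation. In luminal libraries the same sum was 118 to 231 CPM in virgin mice and 360.2 to 2488 CPM in lactation. At Id2, the basal markers summed to 1360.0, 17629 and 1100.2 CPM in the 3 basal libraries, replicates 2, 4 and 6 in that order. In replicate 2 the endothelial markers summed to 9259 CPM, and in replicate 6 the fibroblast markers summed to 53718 CPM. In replicate 4 the smooth muscle genes Acta2, Myh11 and Mylk made up 17254 CPM of the sum, while Krt5 was at 156, Krt14 at 49.0, Trp63 at 26.6 and Oxtr at 98.2 CPM. For 5 of the 8 basal markers (Krt5, Krt14, Trp63, Snai2 and Oxtr) each of the 3 basal libraries at Id2 was below every basal library of the other time points, the lowest of which had 779 CPM of Krt5 and 434 CPM of Krt14. All 3 thus go against their basal label on these markers when set beside other basal libraries, and no basal value at Id2 can be given without such a library. Set beside luminal libraries at Id2, 4 of 8 basal markers were called higher in them (median log2 fold change 2.93) and 8 of 8 luminal markers lower (median -3.31). The pericyte markers summed to 2418 to 9126 CPM in the 3 basal libraries at Id2, and 6 of 6 were called higher at Id2 than at W10 (median log2 fold change 4.53). Immune markers, led by Cd14, summed to 1015 to 1601 CPM in luminal libraries at L3 and 293 to 529 CPM in virgin mice, and fibroblast markers to 610.0 to 4129 CPM in basal lactation libraries against 209 to 544 CPM in virgin mice. Cd14 alone gave 986 to 1582 CPM of the luminal immune sum at L3 and 283 to 515 CPM of it in virgin mice. In bulk libraries such as these, a gene that falls because cells of a type became fewer and one that falls because each cell holds less RNA cannot be told apart.

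In luminal cells, 29 of the 40 members rose from the virgin time points (W10 and M4) to lactation (L3 and L10), 1 fell and 10 did not pass the test. A gene is called where the fold change is at least 2 and the Benjamini-Hochberg false discovery rate under 0.01 in limma across all 17078 genes, with fold changes on log2(CPM + 1). On that scale the change of genes with few reads comes out too small. Of all genes, 7.37% were called higher and 5.83% lower in this comparison. The log2 fold change was above 0 for 37 members, or 35 when libraries were scaled on reads outside milk protein genes, and its median was 1.35 against -0.007 over all genes. Every fatty acid gene (8 of 8) and every gene of desaturation and elongation (7 of 7) rose, as did 8 of 14 sterol genes, 3 of 5 regulators and 3 of 6 glycerolipid genes. Every one of the 6 lactation libraries was above every one of the 6 virgin libraries for 18 members, a pattern that 5.28% of all genes showed, and below them for Dgat2 alone, as for 4.57% of all genes. The virgin and lactation libraries were amplified in different batches, so the batch and the stage cannot be told apart. Endothelial markers were also higher in luminal lactation libraries (6 of 6 called, median log2 fold change 2.54, summed level 37.7 to 397 against 3.71 to 28.8 CPM, led by Pecam1 or Cdh5), as were pericyte markers (4 of 6, median 1.70, 34.6 to 135 against 4.61 to 15.5 CPM, led by Rgs5), and their part in these values was not tested. Without 3 luminal lactation libraries with over 300 CPM of the basal keratin Krt5 (L3 replicate 5, L10 replicates 5 and 6, a choice made after their values were seen), 20 members were called higher. The called members were 17 when libraries were scaled on reads outside milk protein genes, a scaling that moved the median change of all genes by -0.296.

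**Figure D1:**
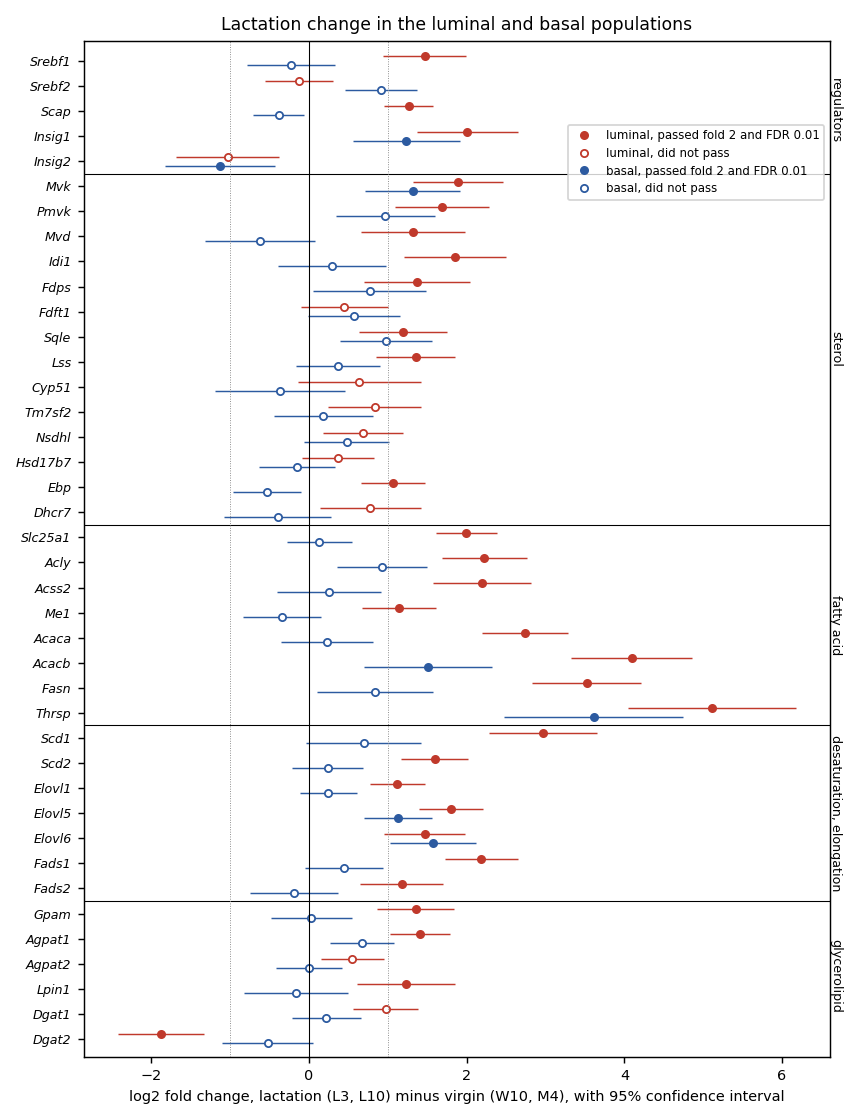
Log2 fold change from virgin (W10, M4) to lactation (L3, L10) of each of the 40 members in luminal and basal cells, by branch, on log2(CPM + 1); points are estimates of the limma model, bars are 95% confidence intervals and filled points are called (fold at least 2, false discovery rate under 0.01). In luminal cells 29 members lie to the right with filled points and Dgat2 to the left, while in basal cells 6 are called higher and Insig2 lower.

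The regulators split into genes that rose in luminal cells and genes that did not. Srebf1 was at 243, 97.3 and 149 CPM at W10, 126, 114 and 175 at M4, 969.9, 497 and 227 at L3 and 373, 180.2 and 551 at L10. The lactation libraries overlapped the virgin range, and the mean rose from 151 to 466 CPM (log2 fold change 1.47 ± 0.26 (SE), adjusted p = 3.55e-05). Scap, the escort of both SREBPs, showed no overlap: it rose from 57, 47.6, 50.7, 39.1, 47.5 and 48.4 CPM in the 6 virgin libraries to 155, 93, 143, 111, 94.3 and 118 in the 6 lactation libraries (1.26 ± 0.15 (SE), adjusted p = 5.43e-08). Its call was lost with libraries scaled on reads outside milk protein genes. Insig1, which encodes a retention factor and is itself a known SREBP target, rose by 2.01 (adjusted p = 5.36e-06) from virgin values of 4.06 to 9.94 CPM. It reached 69.4, 33 and 49.8 CPM at L3, but was at 5.19 CPM in L10 replicate 4, within the virgin range. Insig2, the other retention factor, did not pass the test in luminal cells (-1.03 ± 0.32 (SE), adjusted p = 0.0125), but was called lower by edgeR on the recovered reads (-1.13, adjusted p = 0.00989). Srebf2 was at 328, 188, 176, 149.6, 118 and 115 CPM in the virgin libraries and 157, 192, 70.1, 165, 197 and 188 in lactation. These ranges overlapped throughout, and its log2 fold change was -0.13 ± 0.21 (SE), adjusted p = 0.69.

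Genes of fatty acid synthesis had the highest median change of the 5 branches in luminal cells, 2.48 on the log2 scale. Fasn, the fatty acid synthase, was at 740.4, 190.4 and 311 CPM at W10 and 335, 370.3 and 535 at M4, and at 8195, 2649.5 and 10083 at L3 and 2517, 2462 and 5006 at L10. The lowest lactation library was above the highest virgin library, and the log2 fold change was 3.52 ± 0.34 (SE), adjusted p = 6.79e-10. Thrsp, a small protein known to promote lipogenesis, had the largest change of the 40 members, from 34.3, 5.4, 9.33, 44.2, 62.6 and 118 CPM to 1445, 538, 4479, 525, 611 and 1211 CPM (5.11 ± 0.53 (SE), adjusted p = 2.68e-09). Its 3 M4 libraries were above its 3 W10 libraries, although the difference between the 2 ages was not called (2.40 ± 0.74 (SE), adjusted p = 0.0609). Both acetyl-CoA carboxylases, which make malonyl-CoA, rose. Acacb, the form at the mitochondrial surface, went from 6.24 to 17.9 CPM in virgin libraries to 393, 129, 561, 38.3, 205 and 209.8 CPM in lactation (4.09 ± 0.38 (SE), adjusted p = 2.7e-10). Acaca, the cytosolic form, went from 30.8 to 112 CPM to 143 to 694 CPM (2.74 ± 0.27 (SE), adjusted p = 1.03e-09). Neither gene had a lactation library inside its virgin range.

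The suppliers of acetyl-CoA and NADPH followed. Slc25a1, which exports citrate from mitochondria, had virgin values of 20.4, 24.1, 24.8, 22.4, 25.5 and 19.5 CPM, and values of 218, 100.1 and 345 CPM at L3 and 37 to 56 CPM at L10 (1.99 ± 0.19 (SE), adjusted p = 6.19e-10). Its L3 libraries were all well above its L10 libraries. Acly, which splits that citrate into acetyl-CoA, rose by 2.22 from a mean of 167 to 850.0 CPM, without overlap. Acss2, which makes acetyl-CoA from acetate, rose by 2.19, and Me1, the malic enzyme that yields NADPH, rose by 1.14. For both, L10 replicate 4 lay within the virgin range (5.46 and 65.3 CPM). The call of Me1 was lost with libraries scaled on reads outside milk protein genes.

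**Figure D2:**
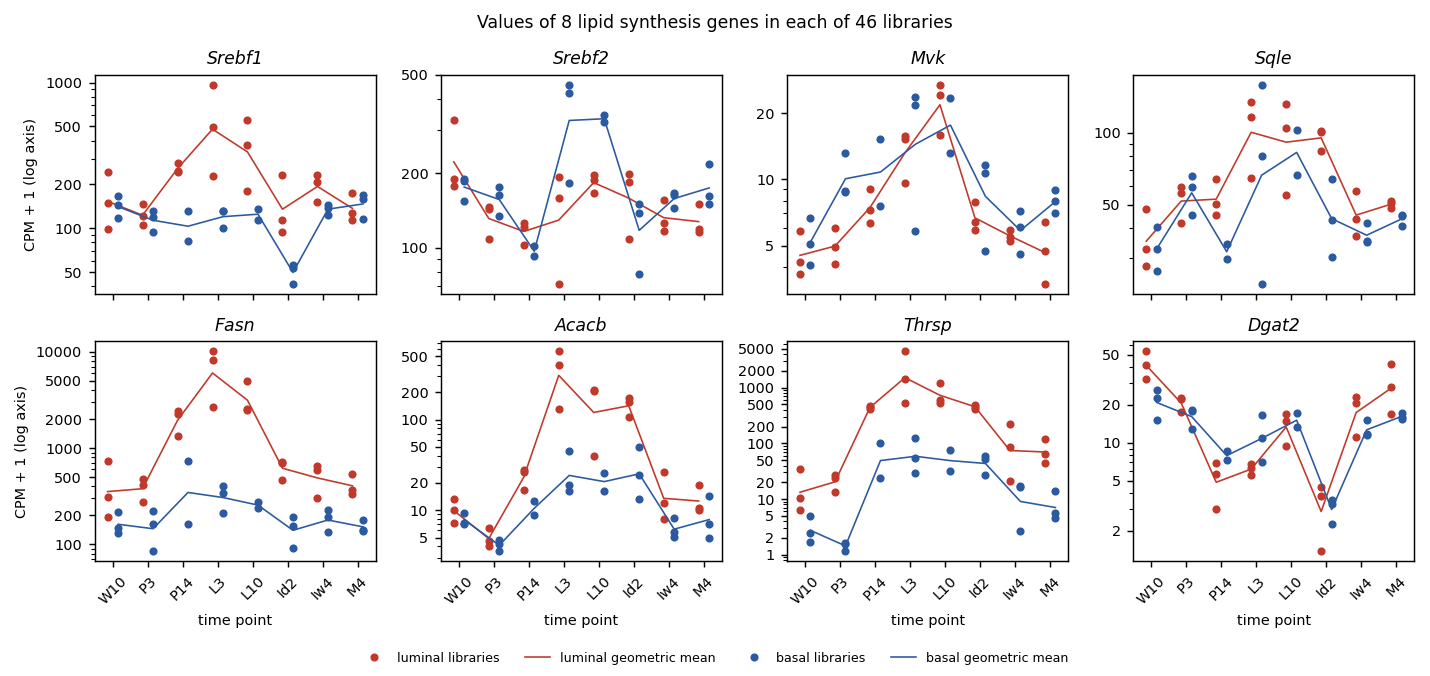
CPM + 1 on a log axis in each of the 46 libraries for 8 members (Srebf1, Srebf2, Mvk, Sqle, Fasn, Acacb, Thrsp, Dgat2) at the 8 time points; points are libraries, lines join geometric means, and the colours separate luminal and basal cells. Fasn, Acacb and Thrsp climb to L3 in luminal cells, Dgat2 has its lowest luminal and basal means at Id2, and Srebf2 is higher in basal than luminal cells at L3.

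Among genes of desaturation and elongation, Scd1, the main stearoyl-CoA desaturase that makes monounsaturated fatty acids, rose from 1049.7, 541, 711, 804, 937 and 1595 CPM to 14835, 7757 and 16765 at L3 and 3739, 3087 and 4919 at L10 (2.96 ± 0.34 (SE), adjusted p = 1.87e-08). Divided by exon length, Scd1 held the highest level of the 40 members in luminal cells at L3, at 2682 CPM per kb of exon, followed by Thrsp at 984, Fasn at 637, Fads1 at 321 and Acly at 216. The place of Thrsp rests on L3 replicate 6: without it Thrsp was at 453 and Fasn at 495 CPM per kb. Scd1 also led at W10, at 157 CPM per kb. Fads1, the delta-5 desaturase of polyunsaturated fatty acids, rose by 2.19 from 137 to 273 CPM to 589.7 to 1993 CPM, without overlap. Fads2, the delta-6 desaturase, rose by 1.17, and its L10 replicate 5 was at 157 CPM, below its highest virgin library. Scd2, another stearoyl-CoA desaturase, rose by 1.60. The elongases Elovl5, Elovl6 and Elovl1 rose by 1.80, 1.47 and 1.12. The adjusted p of these 7 genes ran from 3.74e-09 for Fads1 to 0.000575 for Fads2. With libraries scaled on reads outside milk protein genes, the calls of Fads2 and Elovl1 were lost.

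The sterol branch moved less than the fatty acid branch: its 14 members had a median log2 fold change of 1.13 in luminal cells and 8 of them were called. Its called members were Mvk and Pmvk, the kinases of mevalonate and phosphomevalonate, Mvd, which makes isopentenyl diphosphate, Idi1, its isomerase, Fdps, which makes farnesyl diphosphate, Sqle, which forms squalene epoxide, Lss, which closes it to lanosterol, and Ebp, a late sterol isomerase. Mvk rose from 4.84, 2.73, 3.24, 2.34, 5.38 and 3.74 CPM to 14.2, 8.59 and 14.7 at L3 and 14.9, 26 and 23.2 at L10 (1.89 ± 0.28 (SE), adjusted p = 2.25e-06), and was the only sterol gene with its highest mean at L10. Pmvk rose from 9.71 to 15.3 to 16.5 to 62.2 CPM (1.69 ± 0.29 (SE), adjusted p = 2.66e-05). Both kinases were free of overlap between virgin and lactation libraries, as were Sqle, Lss and Ebp. Idi1 was at 1.61, 1.89, 2.24, 5.08, 2.28 and 2.69 CPM in virgin mice, 9.38, 21.1 and 11.2 at L3 and 3.06, 18.9 and 16.7 at L10 (1.85 ± 0.32 (SE), adjusted p = 2.09e-05). Here L10 replicate 4 sat inside the virgin range. Mvd, at 1.32 ± 0.32 (SE), adjusted p = 0.00171, had a virgin library of 19.9 CPM (W10 replicate 3) that lay within the lactation range, and lost its call with edgeR on the recovered reads.

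Sqle, the epoxidase that is a rate-limiting step of the pathway after mevalonate, rose by 1.19 ± 0.27 and Lss by 1.35 ± 0.25, and Ebp by 1.07 ± 0.20. Fdps rose by 1.36 ± 0.33, but 26.7% of its exon bases overlap another gene in the annotation, so its reads are uncertain. The members that did not pass were Tm7sf2 (0.83 ± 0.29), Dhcr7 (0.78 ± 0.31), Nsdhl (0.68 ± 0.25), Cyp51 (0.64 ± 0.38), Fdft1 (0.45 ± 0.27) and Hsd17b7 (0.36 ± 0.23), which act from squalene synthesis (Fdft1) to the last reduction to cholesterol (Dhcr7). Fdft1 and Tm7sf2 also share exon bases with another gene (18.3% and 12.1%). With libraries scaled on reads outside milk protein genes, Fdft1 and Hsd17b7 turned to -0.01 and -0.09, and the calls of Mvd, Fdps, Sqle, Lss and Ebp were lost, which left Mvk, Pmvk and Idi1. Without the 3 libraries of high Krt5, the calls of Pmvk, Mvd, Idi1, Fdps, Sqle, Lss and Ebp were lost, and Mvk was the sterol gene that stayed called.

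Of the 6 glycerolipid genes 3 rose, 1 fell and 2 did not pass the test. With libraries scaled on reads outside milk protein genes, none of the 3 was called higher (0.76 to 0.95). Gpam, which adds the first acyl chain to glycerol 3-phosphate, rose by 1.35 ± 0.24, Agpat1, which adds the second, by 1.41 ± 0.19, and Lpin1, the phosphatidate phosphatase that yields diacylglycerol, by 1.23 ± 0.31. Agpat2, another enzyme of the second step, was at 0.55 ± 0.19 (SE), adjusted p = 0.0271. Dgat1 and Dgat2 encode unrelated enzymes that complete triglyceride. Dgat1 was at 11, 14.6, 10.7, 10.6, 11.3 and 15.1 CPM in virgin mice and 34.8, 27.7, 38.9, 20.9, 24 and 11.6 in lactation, a change of 0.97 ± 0.20 (SE), adjusted p = 0.000321, which fell short of the fold limit; it was called at 1.02 with a pseudocount of 0.1 and at 1.04 with edgeR. Dgat2 went the other way, from 31, 52.2, 40.2, 41.3, 26.9 and 16 CPM to 5.77, 5.3, 4.56, 15.8, 14 and 8.46 CPM, and fell by 1.88 ± 0.27 (adjusted p = 1.07e-06). Every lactation library of Dgat2 was below every virgin library.

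In basal cells, 6 of the 40 members rose from virgin to lactation, where 9.58% of all genes were called higher, and Insig2 fell, where 6.97% were called lower. The members called higher were Thrsp, Elovl6, Acacb, Mvk, Insig1 and Elovl5. Thrsp was at 3.99, 1.44, 0.681, 3.56, 4.5 and 13 CPM in virgin and 52.9, 28.8, 124, 31.2 and 73.6 CPM in lactation libraries (3.61 ± 0.56 (SE), adjusted p = 3.33e-06). Acacb was at 6.28, 6.15, 8.35, 6, 3.95 and 13.3 CPM and then 18.2, 15.5, 44, 15.5 and 25.1 CPM (1.51 ± 0.40 (SE), adjusted p = 0.00316). Mvk was at 3.1, 4.1, 5.71, 6, 6.98 and 7.93 CPM and then 22.7, 20.8, 4.82, 12.2 and 22.5 CPM (1.31 ± 0.30 (SE), adjusted p = 0.00065). The groups did not overlap for Thrsp and Acacb, while for Mvk L3 replicate 6 was within the virgin range. Insig1 rose by 1.23 (adjusted p = 0.0038), Elovl5 by 1.13 (6.8e-05) and Elovl6 by 1.58 (1.58e-05), and Insig2 fell by 1.13 (adjusted p = 0.00955), which edgeR on the recovered reads did not call (-1.18, adjusted p = 0.011). For 5 members (Insig1, Acly, Acacb, Thrsp and Elovl5) every lactation library was above every virgin library, as for 8.81% of all genes, and for none was every lactation library below.

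Srebf2 and Fasn did not pass the test in basal cells. Srebf2 was at 186, 153, 188, 218, 161 and 149 CPM in virgin basal libraries, 456, 419 and 181 at L3 and 322 and 342 at L10, and its change of 0.91 ± 0.23 (SE), adjusted p = 0.00171 stayed under the fold limit. Fasn was at 217, 148, 129.6, 142, 135 and 180.3 CPM and then 339, 209.9, 402, 239 and 272 CPM (0.84 ± 0.36 (SE), adjusted p = 0.0688). The median log2 fold change of the 40 members was 0.25, with 27 above 0, but -0.11 with 16 above 0 when libraries were scaled on reads outside milk protein genes, a setting in which Thrsp and Elovl6 alone were called higher. In the basal lactation libraries the pericyte markers, led by Rgs5, summed to 1348 to 12390.4 CPM against 62.2 to 173 in virgin mice, and endothelial markers to 463 to 977 against 19.4 to 126 CPM. Of 8 adipocyte markers only 3 (Lep, Plin1 and Lipe) had a row, while Adipoq, Cidec, Cfd, Retn and Pck1 had none. The 3 summed to 167 to 299.9 CPM in lactation against 11.3 to 21.2 CPM, with Lep the most abundant in lactation. Of these 3, 2 were called higher in lactation. The 8 luminal markers summed to 635 to 1292 CPM in the basal lactation libraries and 651 to 2254 CPM in the virgin ones, and 5 of 8 were called lower in lactation (median log2 fold change -1.33). The part of these cells in the basal values was not tested.

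The lactation change was larger in luminal than in basal cells for 15 members, tested as the difference of the 2 changes, and smaller for none in limma or edgeR, where 4.91% and 5.4% of all genes were called in limma. At an unadjusted p under 0.05 it was smaller for 2 members. The 15 members with the larger change in luminal cells were Srebf1, Scap, Mvd, Ebp, Slc25a1, Acss2, Me1, Acaca, Acacb, Fasn, Scd1, Scd2, Fads1, Fads2 and Gpam. Fasn had the largest difference (2.69 ± 0.50 (SE), adjusted p = 0.000128), followed by Acacb (2.59 ± 0.55), Acaca (2.52 ± 0.39) and Scd1 (2.27 ± 0.49). These 4 genes encode enzymes that make malonyl-CoA (Acacb and Acaca), use it to build palmitate (Fasn) and desaturate fatty acids (Scd1). Ebp and Mvd were the sterol genes in this set, at 1.60 ± 0.29 and 1.94 ± 0.47. The difference was 0.57 for Mvk, with a 95% confidence interval from -0.26 to 1.40, and -0.11 for Elovl6, with an interval from -0.86 to 0.64, so neither was separated between the populations. With the sort as a block, since luminal and basal cells of a replicate came from the same sort, Idi1 (1.63, adjusted p = 0.00475) and Acly (1.32, 0.00349) were also called higher, and Srebf2 (-1.03, 0.00515) and Dgat2 (-1.37, 0.00447) lower.

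**Figure D3:**
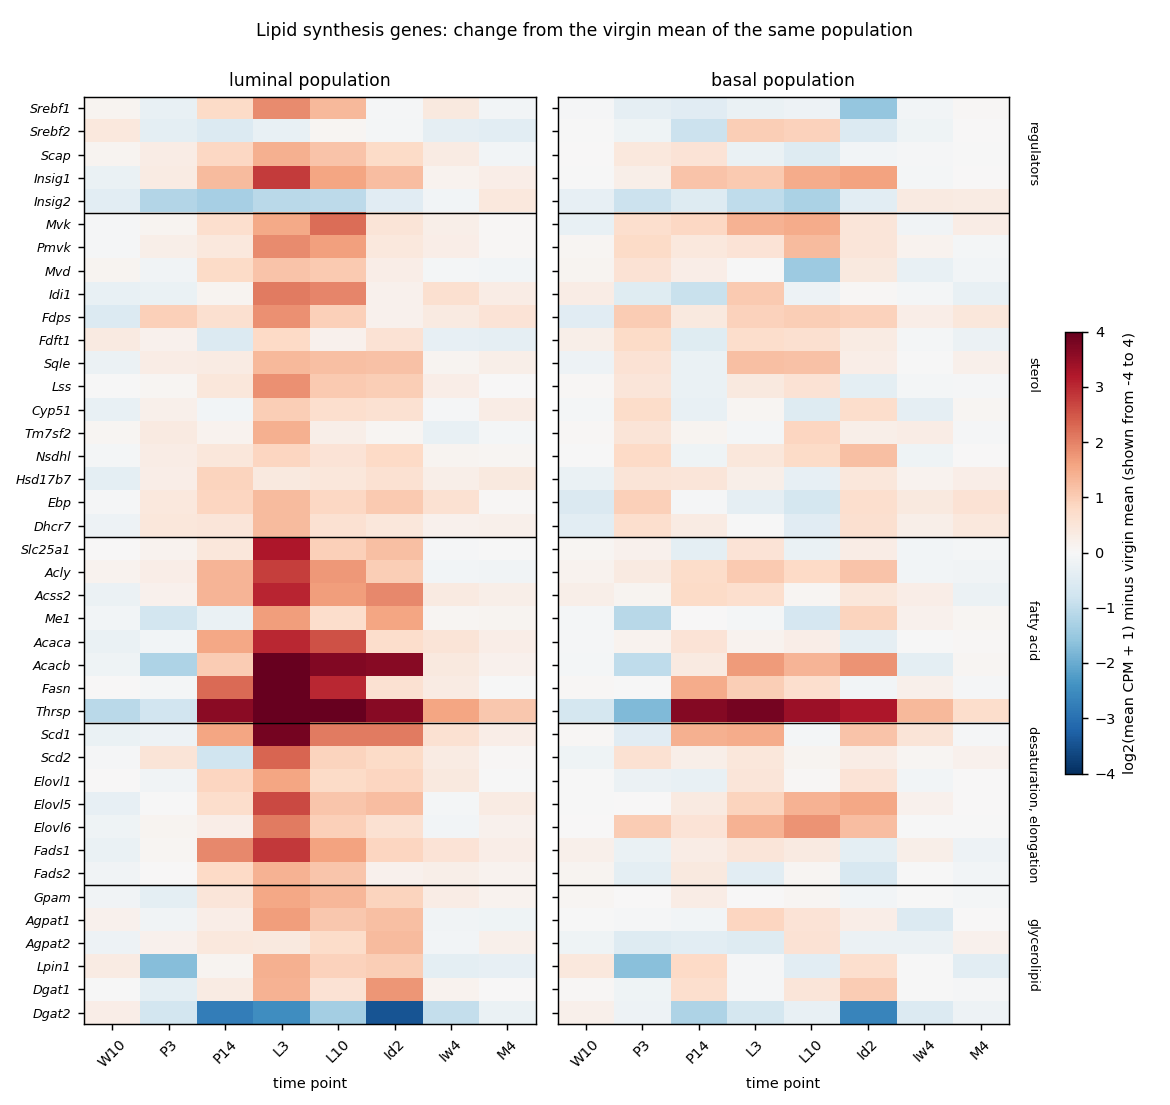
Heat map of the 40 members (rows, by branch) at the 8 time points in luminal and basal cells (columns); colour is log2(mean CPM + 1) minus the mean of the virgin time points of the same population, shown from -4 to 4. Luminal columns are reddest at L3, where 33 of 40 members have their highest mean, while the basal columns show no common peak.

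Along the cycle, the luminal mean was highest at L3 for 33 of the 40 members, among them all fatty acid genes, all genes of desaturation and elongation and 12 of 14 sterol genes. The exceptions were Mvk at L10, Hsd17b7 at P14, Agpat2 and Dgat1 at Id2, Insig2 at M4, and Srebf2 and Dgat2 at W10. The count of 33 was not set against the share of all genes with their highest luminal mean at L3. From W10 to P3, Lpin1 fell by 1.84 (0.422% of all genes were lower) and no member rose in limma or edgeR, with 2 higher at an unadjusted p under 0.05. The call of Lpin1 was lost with either a pseudocount of 0.1 or scaling on reads outside milk protein genes. From P3 to P14, 5 members rose, where 0.814% of all genes did: Thrsp by 4.44, Fasn by 2.36, Lpin1 by 1.86, Fads1 by 1.82 and Acaca by 1.68. Fasn thus went from 479.6, 413 and 272 to 2430.0, 1328 and 2259 CPM before lactation began. Dgat2 fell by 2.09 and Scd2 by 1.31 in the same step, in which 0.709% of all genes fell. With the sort as a block Acacb also rose (2.25, adjusted p = 0.00748). P3 and P14 were amplified in the same batch but, by their labels, sequenced in different lanes (5 and 6), as were W10 and Id2 (2 and 3) and L3 and L10 (7 and 8), so lane and stage cannot be told apart for these steps. W10 and P3 differed in both. In place of 7 members, 3 or 4 were called without any 1 of these 6 libraries, with the most (4) without P3 replicate 2 or 4.

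From P14 to L3, 10 members rose, where 3.19% of all genes did, and none fell (2.97% of all genes) in limma, in edgeR or at an unadjusted p under 0.05. Acacb rose by 3.73, from 27.1, 15.8 and 25.2 to 393, 129 and 561 CPM, Scd2 by 3.12 and Slc25a1 by 2.60. The others were Scd1, Me1, Idi1, Elovl5, Elovl6, Acss2 and Agpat1, with Scd1 at 2.23 and Agpat1 at 1.39. With the sort as a block Lss, Acly and Acaca were also called (1.29, 1.34 and 1.38). P14 and L3 were amplified in different batches, so batch and stage cannot be told apart for this step. Of 8 basal markers 3 were called higher in the same luminal step (median log2 fold change 2.04), and their part was not tested. Slc25a1, Scd2 and Elovl5 fell again from L3 to L10, by 2.13, 1.42 and 1.40, within the same batch, where 0.0995% of all genes fell. The log2 fold change of this step was below 0 for 35 of the 40 members, with a median of -0.59 against 0.054 over all genes, and for 31 with a median of -0.35 when scaled on reads outside milk protein genes. Without L10 replicate 4, or without L3 replicate 4 or 6, 1 member was called. With the spread of only the 2 conditions compared in place of that of all 16, limma called no member from P14 to L3 or from L3 to L10.

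From L10 to Id2, 4 members fell in luminal cells and 1 rose. Fasn went from 2517, 2462 and 5006 CPM at L10 to 725, 693 and 468 at Id2 and fell by 2.35 (adjusted p = 0.0012). Mvk, Acaca and Dgat2 fell too, by 1.71, 1.66 and 2.23, and Dgat1 rose by 1.23, to 43.5, 44.9 and 42.7 CPM. Of all genes, 2.41% fell and 2.15% rose in this step, and L10 and Id2 were amplified in different batches. Without L10 replicate 6 or Id2 replicate 6, 1 member was called, without Id2 replicate 4, 2 were, and limma called none with the spread of L10 and Id2 alone. Against W10, which shared its amplification batch with Id2, 12 members were higher at Id2 (6.23% of all genes) and Dgat2 lower (4.14%). In the same comparison immune markers were higher at Id2 (5 of 6 called, median 2.82, summed level 2594 to 4377 against 406 to 529 CPM, led by Cd14), as were pericyte markers (3 of 6, median 2.61, 128 to 251 against 4.61 to 9.11 CPM) and fibroblast markers (2 of 6, median 3.18, 180.2 to 3991 against 116 to 404 CPM), and their part was not tested. Cd14 alone gave 2408 to 4338 CPM of the immune sum at Id2 and 388 to 515 CPM of it at W10. Acacb, at 169.9, 155 and 106 CPM at Id2, was higher than at W10 by 3.83, Thrsp by 5.10 and Scd1 by 2.31. Sqle, Ebp, Slc25a1, Acss2, Me1, Elovl5, Fads1, Agpat2 and Dgat1 were the others. Fasn was not called against W10, where its mean was 414 CPM against 629 at Id2. Its W10 values were 740.4, 190.4 and 311 CPM in replicates 3, 5 and 6, so that mean depends on replicate 3.

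From Id2 to Iw4, 8 members fell (6.12% of all genes): Acacb by 3.39, Dgat1 by 1.62, Me1 by 1.58, and Acss2, Agpat2, Elovl5, Slc25a1 and Agpat1. Dgat2 rose by 2.61 (4.39% of all genes rose). Immune markers fell in the same step (5 of 6 called, median -2.61, to a summed level of 299 to 537 CPM), as did pericyte markers (3 of 6, median -2.07, to 7.22 to 15.5 CPM) and milk protein genes (4 of 6, median -3.42). Cd14 alone gave 283 to 520 CPM of the immune sum at Iw4. Of 6 endothelial markers 1 was called lower (median -2.66, 8.63 to 15.2 CPM at Iw4), and the part of these cells was not tested. Id2 and Iw4 were amplified in different batches. With the sort as a block Thrsp fell as well (-2.61, adjusted p = 0.00629). The median change of the 40 members was -0.46, or 0.13 when scaled on reads outside milk protein genes, a scaling that moved the median of all genes by 0.437 in this step, and 2 members were then called. Between Iw4 and its age-matched group M4 no gene at all was called in limma in luminal cells (0%), and no member in edgeR or at an unadjusted p under 0.05. The luminal mean of Fasn was 517 ± 189.6 CPM (SD, n = 3) at Iw4 and 413 ± 106 CPM at M4. No member was called between M4 and W10 in limma or edgeR, 5 had an unadjusted p under 0.05, and 0.878% of all genes were higher and 0.0937% lower at M4.

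In basal cells the highest means were spread over the time points: L3, P3 and Id2 each held 8 members, P14 held 7, L10 held 6, and W10, M4 and Iw4 held 1 each. Of 14 sterol genes 7 had their highest basal mean at P3 (Cyp51, Dhcr7, Ebp, Fdft1, Fdps, Hsd17b7 and Mvd). Like the counts by time point, this count was not set against the share of all genes. Ebp was the only one of the 7 called between W10 and P3 (1.53 ± 0.28 (SE), adjusted p = 0.000201, with 4.97% of all genes higher). Lpin1 fell in that step by 1.90 (1.79% of all genes lower), as in luminal cells, and rose from P3 to P14 by 2.22, together with Thrsp by 5.10 (2.46% higher, 1.18% lower). Thrsp was at 0.566, 0.149 and 0.65 CPM at P3, the lowest of them under the worth of 3 reads, and at 22.9 and 99.9 CPM in the 2 libraries of P14. Its fitted change depended on the pseudocount, and was 6.59 with 0.1. Those P14 libraries differed widely for lipid genes: Fasn was at 162 and 738 CPM, with milk protein genes at 0.629% and 5.25% of the reads. The 8 luminal markers summed to 798 and 2450.1 CPM in the same order, with Krt18 at 41.7 and 271 CPM. Fibroblast markers rose in the same step (5 of 6 called, median 5.42, summed level 4623 to 8360.4 against 241 to 596 CPM, led by Col1a1 at P14), as did pericyte markers (5 of 6, median 3.90, 1077 to 1179 against 33.8 to 99.2 CPM) and endothelial markers (3 of 6, median 3.51, 289.9 to 523 against 6.39 to 42.9 CPM), and their part was not tested. Without P14 replicate 5, and with the remaining library taken to vary like the other groups, the change was 4.06 for Thrsp (adjusted p = 0.0151) and 1.32 for Lpin1 (adjusted p = 0.187), and both calls were lost.

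Srebf2 was the only member called in basal cells from P14 to L3, where it rose from 100.4 and 91.5 to 456, 419 and 181 CPM (1.76 ± 0.34 (SE), adjusted p = 0.000871, with 2.2% of all genes higher). Without L3 replicate 6, which had the lowest of its L3 values, 4 members were called, and without P14 replicate 5 none was in limma. From P14 to L3, 2 of 3 adipocyte markers (median 2.43) and 1 of 6 pericyte markers (median 1.06) were called higher in basal cells. Lower calls were 1 of 6 fibroblast (median -2.59) and 1 of 8 luminal markers (median -1.15), and the part of these markers was not tested. From L3 to L10 no member was called in limma or edgeR and 5 had an unadjusted p under 0.05 (0.457% and 0.679% of all genes were called higher and lower). At Id2 Srebf2 was back at 77.4, 138 and 149 CPM and had fallen from L10 (adjusted p = 0.00116), as Dgat2 had by 2.36 (7.68% lower), while Mvd, Ebp and Me1 rose (5.63% higher). With Id2 replicates 2 and 6 left out, which had the weakest basal markers, no member was called in limma between L10 and Id2; the remaining library, with low basal keratins itself, was then taken to vary like the other groups. From Id2 to Iw4 6 members fell (9.27%) and Srebf1 and Dgat2 rose (8.14%), and 2 members were called without these libraries. Between W10 and Id2 5 members were higher (8.78%) and Srebf1 and Dgat2 lower (8.58%), and with the sort as a block Nsdhl was also higher at Id2 (1.16). Without the 2 libraries 4 members were called, 3 of them among the 7. Between W10 and Id2, with all libraries, 5 of 6 fibroblast markers were called higher at Id2 (median 5.82, summed level 2337 to 53718 against 209 to 315 CPM), 5 of 6 endothelial (median 3.48, 266 to 9259 against 53.8 to 126 CPM), 4 of 6 immune (median 2.47) and 6 of 6 pericyte markers (median 4.53). Of 8 basal markers 7 were lower (median -4.49), and the part of these markers in the result was not tested. From Id2 to Iw4, 6 of 8 basal markers were called higher (median 4.01). Pericyte (6 of 6, median -4.25), endothelial (5 of 6, -3.57), fibroblast (4 of 6, -4.17) and immune markers (3 of 6, -2.26) were called lower. Their part in that step was not tested. No member was called in limma or edgeR between Iw4 and M4 (0% higher, 0.00586% lower; 1 member at an unadjusted p under 0.05) or between M4 and W10 (1.02% higher, 0.0293% lower; 2 members).

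Dgat2 and Lpin1 had courses of their own. Dgat2 in luminal cells was at 31, 52.2 and 40.2 CPM at W10, 21.6, 21.2 and 16.7 at P3, 5.87, 1.97 and 4.64 at P14, 5.77, 5.3 and 4.56 at L3, 15.8, 14 and 8.46 at L10, 2.77, 0.374 and 3.46 at Id2 and 22, 19.6 and 10.1 at Iw4. Its lowest mean was that of Id2, where replicate 4 held 2 reads, so the size of its changes to and from Id2 depends on the pseudocount: with 0.1 it was -2.88 from L10 and 3.28 to Iw4. At Iw4 it overlapped the virgin range. In basal cells it was at 21.8, 25.2 and 14.3 CPM at W10, 15.6, 6.09 and 9.83 at L3, 16.2 and 12.3 at L10, 1.25, 2.52 and 2.26 at Id2 and 14.1, 10.5 and 10.8 at Iw4. It was likewise lowest at Id2, where the libraries go against their basal label on several markers. Lpin1 in luminal cells was at 833, 202 and 521 CPM at W10, 134, 87.9 and 159.9 at P3, 466, 467 and 424 at P14, 1521, 771 and 1055 at L3 and 629, 641 and 1105 at L10. The P3 libraries were the low ones, and the W10 libraries overlapped those of P14 and lactation. In basal cells Lpin1 was at 130.1, 83.8 and 33.2 CPM at W10, 18.3, 19.1 and 17.9 at P3 and 47.5 and 169 at P14.

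Luminal and basal levels were closer in virgin mice than in lactation. At W10 the basal mean was a median of 76.3% of the luminal mean over the 40 members, and 3 members were lower in basal cells (Me1, Scd1 and Lpin1; 5.12% of all genes), or 5 with the sort as a block, which added Acly and Thrsp. At L3 the median was 26.3%, and 30 members were lower in basal cells (9.87% of all genes). The fatty acid genes had a median of 7.56% and the sterol genes of 45.7%. Fasn, at 339, 209.9 and 402 CPM in basal against 8195, 2649.5 and 10083 CPM in luminal libraries, stood at 4.55% (log2 difference -4.30 ± 0.48 (SE), adjusted p = 4.87e-09). Scd1 stood at 4.4%, Lpin1 at 5.39% and Thrsp at 3.19%. At the other end, the basal mean was above the luminal mean for Srebf2 (252%), Dgat2 (201%), Mvk (129%) and Insig2 (128%), of which Srebf2 was called (1.34 ± 0.30 (SE), adjusted p = 0.000484, with 15.9% of all genes higher in basal cells). The 6 milk protein genes, made by secretory luminal cells, had basal means of 2.01 to 2.80% of the luminal means at L3, and all 40 members were above that range. Over all genes the median log2 difference of basal from luminal cells at L3 was 0.10, so most genes lie above that range too. The highest milk protein percentage was 66.9% at W10, with 24 of 40 members above it, 28.1% at P3 (36), 16.6% at P14 (39), 6.91% at L10 (36), 12.8% at Id2 (37), 26.2% at Iw4 (37) and 14.4% at M4 (38).

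**Figure D4:**
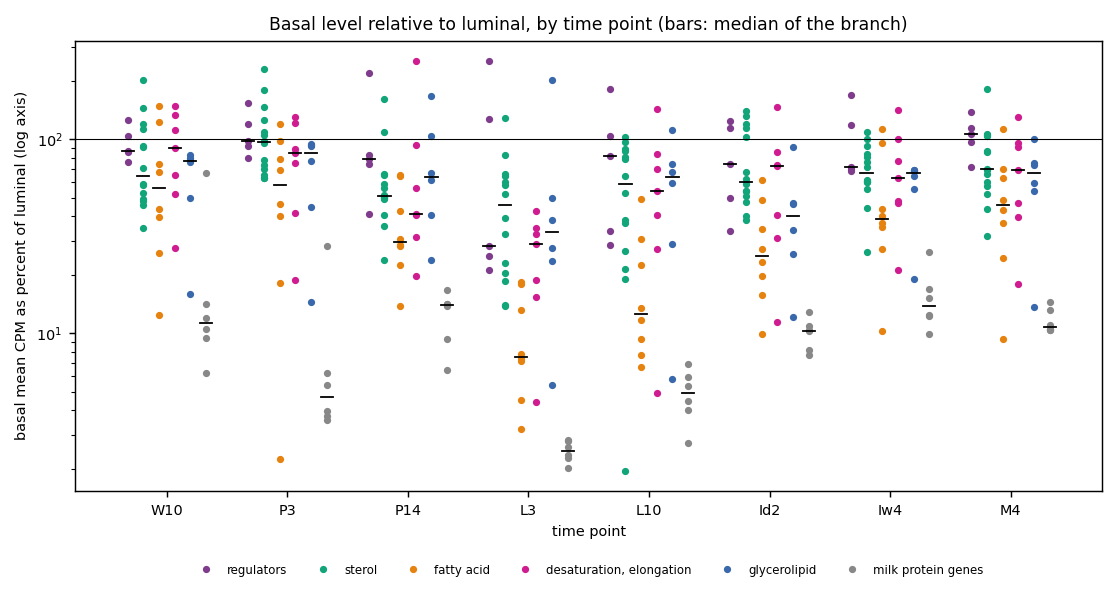
Basal mean as a percentage of the luminal mean at each time point, on a log axis, for each member by branch and for the 6 milk protein genes; points are genes and bars are medians of a branch. The median of the fatty acid genes is 55.7% at W10 and 7.56% at L3, and the sterol genes stay nearer to 100%, at 45.7% at L3.

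The other time points lay between these. Members lower in basal cells numbered 5 at P3 (4.64% of all genes), 13 at P14 (3.39%), 18 at L10 (10.9%), 15 at Id2 (9.39%, and 7 without basal replicates 2 and 6), 5 at Iw4 (3.75%) and 5 at M4 (4.24%). Scd1, Me1 and Lpin1 were lower in basal cells at all 8 time points. The luminal level of Lpin1 was thus above the basal level even in virgin mice, at 833, 202 and 521 CPM against 130.1, 83.8 and 33.2 CPM at W10. At P14 Scd2 was higher in basal cells by 1.28 (9.54% of all genes were higher), the only such call besides Srebf2 at L3. At the other time points no member was called higher in basal cells in limma or edgeR, while 9.1% of all genes were at W10, 7.27% at P3, 13.8% at L10, 12.2% at Id2, 7.79% at Iw4 and 8.2% at M4. At an unadjusted p under 0.05, 1 member was higher at P3 and 1 at L10, and 0 at W10, Id2, Iw4 and M4. The count at P14 rests on 2 basal libraries, and without basal replicate 3 no member was called. With the sort as a block the count was 8 at Iw4, adding Acly, Acaca and Fasn, and single members joined at P3 (Fads2), P14 (Srebf1) and M4 (Acly) and 2 at L10 (Slc25a1 and Acss2) and at Id2 (Sqle and Acly).

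The fatty acid and sterol branches differed in how the 3 luminal libraries of L3 were ordered. The 8 fatty acid genes summed to 12643, 4510.2 and 17845 CPM in replicates 4, 5 and 6, and the 14 sterol genes to 747, 616 and 388 CPM. Replicate 6, with the most milk protein reads (58.2%), was thus highest for fatty acid genes and lowest for sterol genes, and replicate 5, with the fewest (27.1%), was lowest for all 8 fatty acid genes. In basal cells of L3 the sums were 692, 462 and 853 CPM and 493, 294 and 129 CPM, and replicate 6 was again highest for the first and lowest for the second. At L10 replicate 4 was the lowest luminal library for 13 of 14 sterol genes and 7 of 8 fatty acid genes. With L10 luminal replicate 4 and both L3 libraries of replicate 6 left out, 29 members were called higher in luminal and 9 in basal cells in lactation. Whether the milk protein share had a part in this order was not tested.

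**Figure D5:**
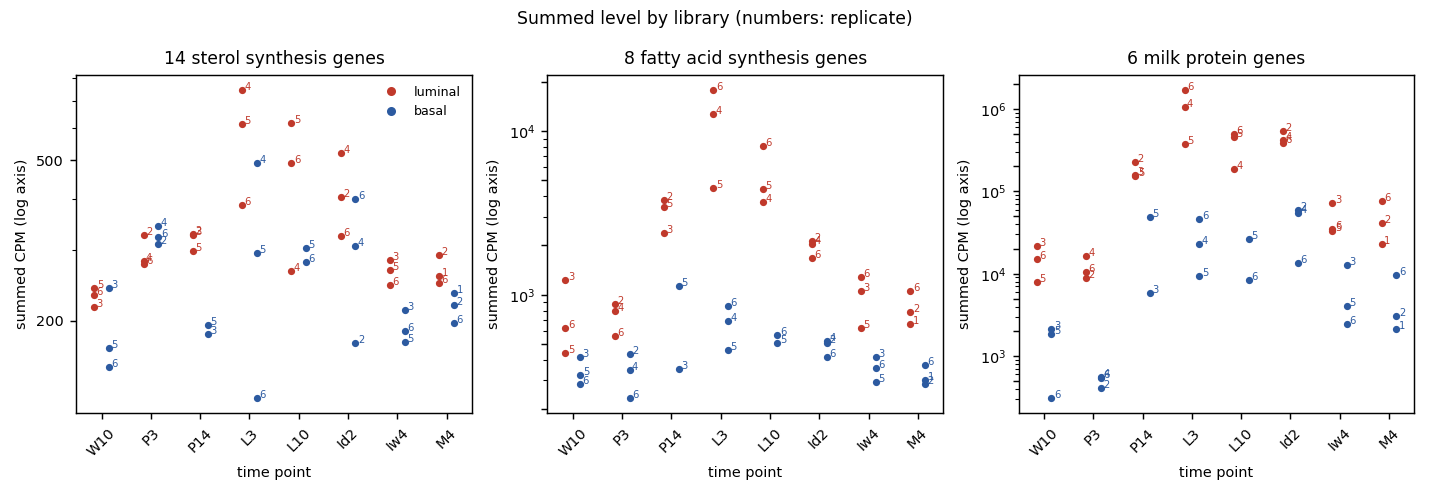
Summed CPM, on a log axis, of the 14 sterol genes, the 8 fatty acid genes and the 6 milk protein genes in each library at the 8 time points, in luminal and basal cells, with digits giving replicate numbers. At L3 luminal replicate 6 is highest for fatty acid and milk protein genes (17845 CPM for the fatty acid genes) and lowest for sterol genes (388 CPM).

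Genes of neighbouring pathways were listed by name to place these members, and 84 had a row. In luminal cells, where 7.37% of all genes rose and 5.83% fell, 29 of them rose from virgin to lactation and none fell in limma or edgeR, with 7 lower at an unadjusted p under 0.05. These lists were also chosen with results of these data known. The genes of the milk fat globule gave the largest share, 6 of 7: Xdh and Btn1a1, which anchor the globule membrane, Plin2 and Cidea, which coat lipid droplets, Mfge8 and Muc1. Cidea went from 15.6, 5.18, 7.59, 9.2, 6.94 and 15.9 CPM to 367, 129, 629, 29.3, 191 and 166 CPM (4.09 ± 0.48 (SE), adjusted p = 3.72e-08). Uptake and activation of fatty acids gave 6 of 13, among them Cd36, a fatty acid transporter (6.19 ± 0.68), Fabp3, a fatty acid binding protein (5.71 ± 0.52), Lpl, the lipase that frees fatty acids from lipoproteins (4.04 ± 0.36), and Acsl1, an acyl-CoA synthetase (3.27 ± 0.29), with Fabp5 and Slc27a4. Cd36 is also made by endothelial cells, whose markers rose in the same libraries although the sort excluded CD31+ cells, and their part was not tested. Other fatty acid genes gave 6 of 13 (Olah, Tecr, Hacd2, Scd3, Scd4 and Fads3). Olah, the thioesterase that ends synthesis at medium chain length, went from 1.99 to 13.7 CPM to 194, 94.8, 685, 35.5, 222 and 152 CPM (4.84 ± 0.45 (SE), adjusted p = 2.7e-10), and its lowest lactation value was again L10 replicate 4.

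Of other sterol genes 3 of 10 rose, among them Acat2, a thiolase at the start of the pathway (1.10 ± 0.25), and Stard4, a sterol carrier (1.24 ± 0.34). Of other glycerolipid genes 3 of 8 rose (Gpat4, Agpat4 and Gpd1), of genes that supply NADPH 3 of 6 (Pgd, Tkt and Taldo1), and of other regulators 2 of 10 (Pparg and Ppargc1b). None of 13 genes of fatty acid oxidation and none of 4 genes of sterol export and storage was called in limma or edgeR, and at an unadjusted p under 0.05 there were 8 (5 higher, 3 lower) and 0. Among the oxidation genes Cpt1a, the entry step into mitochondria, was at -0.69 ± 0.19 and Hadha at 0.71 ± 0.13. In basal cells 14 of the 84 rose and 10 fell. Pparg, a nuclear receptor that drives adipocyte genes, was at 0.37, 1.54, 0.681, 0.915, 1.84 and 2.44 CPM in virgin basal libraries and 18.7, 19.3, 49.9, 64.7 and 130.5 CPM in lactation (4.53 ± 0.42 (SE), adjusted p = 1.38e-10), against 10.5, 11.4, 2.45, 0.798, 8.26 and 9.93 CPM in luminal lactation libraries. Its change was larger in basal than in luminal cells (difference -3.01 ± 0.58 (SE), adjusted p = 0.000225), the reverse of Fasn. Pericyte, endothelial and 2 of 3 adipocyte markers were called higher in the same basal libraries, and their part was not tested.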

How the data were processed

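Luminal and basal mammary cells of 16 conditions (8 time points) were profiled by the authors with amplified RNA-seq. Of 47 samples described, 46 had a column and were used. Per the submitters' notes, reads were aligned with GSNAP to mouse NCBI Build 37.1 (mm9), counted per gene with HTSeq and scaled with edgeR. The authors removed genes low in nearly all samples and some very abundant genes of low variation. The deposited signal is CPM of effective library size. Because that size is scaled, a library need not sum to 1000000. All values were whole reads once divided by the worth of 1 read (100%, tolerance 0.1 read). Symbols were in the table for 16897 of 17078 gene IDs.

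The 29 comparisons came from 1 limma 3.58.1 model (R 4.3.3) of log2(CPM + 1) with 16 conditions, a mean-variance trend and no covariates. Calls needed a fold of at least 2 and an adjusted p (Benjamini-Hochberg over 17078 genes) under 0.01. The members and lists were chosen with earlier results of these data known. All members were eligible to be named, and other genes of the lists where they were called. Alternatives were a pseudocount of 0.1, median-ratio scaling, scaling on reads outside milk protein genes, a mean of at least 5 CPM, edgeR 4.0.16 on the recovered reads, the sort as a block, a false discovery rate of 0.05, the spread of the compared conditions only, and each library left out. The fits were tested on simulated data.

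Luminal and basal libraries with the same number came from the same sort, by the study's methods, so the numbers pair them. Deviations from the condition means correlated above 0 in 21 of 22 pairs and above 0.1 in 16 (median 0.25), and the consensus correlation of the block was 0.179. P14 replicate 5 by its label is the column numbered 6. P-values measure the spread between sorts of pooled mice. Intervals from 3 reads cover counting error only. Figures were drawn with matplotlib 3.10.9.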

Additional observations from a re-analysis of the deposited data

Results flagged for a closer look

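The change from virgin to lactation differed between luminal and basal cells, by a test of the difference itself in limma without a block, for 15 members, all of them with the larger change in luminal cells. On the log2 scale the difference was 2.69 for Fasn, 2.59 for Acacb, 2.52 for Acaca, 2.27 for Scd1, 1.94 for Mvd, 1.94 for Acss2, 1.87 for Slc25a1, 1.74 for Fads1, 1.70 for Srebf1, 1.65 for Scap, 1.60 for Ebp, 1.49 for Me1, 1.36 for Scd2, 1.36 for Fads2 and 1.32 for Gpam. With the sort as a block, the difference was called higher for 17 members and lower for 2 (Srebf2 and Dgat2). Of the neighbouring lists, 4 genes called without the block had a difference of at least 3 in size. It was 3.41 for Olah, the thioesterase of medium chain fatty acids, 3.25 for Cidea, a lipid droplet protein, 3.18 for Scd4, a desaturase, and -3.01 for Pparg, which rose more in basal cells. The adipocyte marker Lep rose in the same basal libraries. Pericyte (6 of 6 called, median log2 fold change 4.31), endothelial (6 of 6, 2.85) and fibroblast markers (2 of 6, 1.65) were called higher there too. The part of all these markers in the value of Pparg was not tested. No outlier rule was applied to single libraries for these flags, because each condition held 2 or 3. The sets of libraries left out by name elsewhere were picked after their values were seen.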

How the results depend on the processing

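Counts are of the 40 members. Scaling on reads outside milk protein genes moved the median change of all genes by -0.296 in luminal and -0.295 in basal lactation, and left 17 of 29 members called higher in luminal cells and 2 of 6 in basal cells. The calls lost in luminal cells were those of Scap, Mvd, Fdps, Sqle, Lss, Ebp, Me1, Elovl1, Fads2, Gpam, Agpat1 and Lpin1. It gave 0 for luminal P3 against W10, 2 in place of 9 for luminal Iw4 against Id2, 2 in place of 1 for basal L3 against P14, 5 in place of 8 for basal Iw4 against Id2, 4 in place of 7 for basal Id2 against W10, and 5 in place of 3 for basal against luminal at W10. A pseudocount of 0.1 gave 0 for luminal P3 against W10, 1 for basal L10 against L3 and 5 for basal against luminal at W10. A false discovery rate under 0.05 gave 20 for luminal L3 against P14, 14 for luminal Iw4 against Id2, 4 for basal P3 against W10, 2 for basal L3 against P14, 1 for basal L10 against L3, 11 for basal Id2 against W10, and 5, 8, 10 and 10 for basal against luminal at W10, P3, Iw4 and M4. With the spread of the compared conditions only, limma has few degrees of freedom, and the counts were 0 for luminal P3 against W10, L3 against P14, L10 against L3 and Id2 against L10, 3 for Iw4 against Id2 and 7 for Id2 against W10. In basal cells they were 1 for P3 against W10, 2 for Id2 against W10 and 0 for P14 against P3, L3 against P14, Id2 against L10 and Iw4 against Id2. For basal against luminal they were 4 at P14, 16 at L3, 5 at L10, 3 at Id2 and 3 at Iw4. With the replicate block the counts were 5 at W10 and 8 at Iw4 for basal against luminal, 17 higher and 2 lower for the difference between cell types, and basal Iw4 against Id2 added Acly (-1.22). Beside this and the calls given with the results, the block changed no other call of a member.

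Alternatives chosen after seeing the data left out 3 luminal lactation libraries with over 300 CPM of Krt5 (20 members higher in luminal cells, 13 with a larger change than in basal cells), L10 luminal replicate 4 with both L3 libraries of replicate 6 (29 and 16, and 9 in basal cells), or Id2 basal replicates 2 and 6. The last gave 0 for basal Id2 against L10, 2 for Iw4 against Id2, 4 for Id2 against W10 and 7 for basal against luminal at Id2. Leaving out 1 library at a time gave 27 to 30 members higher in luminal lactation, 4 to 9 in basal lactation and 12 to 17 for the difference. For luminal steps the ranges were 0 to 1 for P3 against W10, 3 to 4 for P14 against P3, 8 to 13 for L3 against P14, 1 to 4 for L10 against L3, 1 to 6 for Id2 against L10, 7 to 9 for Iw4 against Id2, 0 to 0 for Iw4 against M4 and 9 to 14 for Id2 against W10. For basal steps they were 1 to 2, 0 to 2, 0 to 4, 0 to 0, 2 to 5, 4 to 6, 0 to 0 and 5 to 8 in the same order. For basal against luminal they were 2 to 4 at W10, 4 to 4 at P3, 0 to 11 at P14, 28 to 34 at L3, 13 to 20 at L10, 10 to 16 at Id2, 3 to 5 at Iw4 and 3 to 6 at M4. The lowest counts came without W10 replicate 3 or 6 or any P3 library for luminal P3 against W10, without W10 replicate 3 or 5 or P3 replicate 6 for basal P3 against W10, without Id2 replicate 2 for basal Id2 against L10, without Iw4 replicate 5 for basal Iw4 against Id2, without luminal replicate 3 or 6 or basal replicate 5 at Iw4, and without basal replicate 1 or luminal replicate 6 at M4. The lowest value of Thrsp in basal cells at P3 and that of Dgat2 in luminal cells (2 reads in Id2 replicate 4) lie at or under the worth of 3 reads, where depth limits any fold. Except where a setting removed libraries or genes, the cause of these differences was not tested.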

Other observations

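Lipid genes outside the 40 members also moved in basal cells. Of the 84 neighbouring genes 14 rose and 10 fell from virgin to lactation in basal cells in limma, where 9.58% and 6.97% of all genes did. Fatty acid uptake and activation held 4 that rose and 2 that fell, other regulators 3 and 1, other sterol genes 3 and 0, genes of the fat globule 2 and 0, and other fatty acid genes 1 and 3. Cd36, a fatty acid transporter, was at 7.69, 25.8, 16.1, 8.24, 22.3 and 73.5 CPM in virgin basal libraries and 256, 219, 482, 283 and 298 CPM in lactation (3.89 ± 0.72 (SE), adjusted p = 4.94e-05). Cd36 is also made by endothelial cells and adipocytes. Endothelial markers (6 of 6) and 2 of the 3 adipocyte markers with a row were called higher in the same libraries, although the sort excluded CD31+ cells. The part of these cells in the value was not tested.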
